A study of Mus musculus with 8 samples.

Results

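The response of FIH-KO LLC cells to low oxygen was read from 4 RNA-Seq libraries, out of 8 in the whole series. LLC (Lewis lung carcinoma) is an established mouse lung tumor cell line, and FIH-KO cells were LLC cells edited with CRISPR/Cas9 through a guide against exon 2 of Hif1an, the gene that encodes FIH, followed by dilution to single cells, so that the line traces to a clone. The 4 libraries were chosen by their labels: 2 from FIH-KO cells kept at 21% O2 (normoxia) and 2 from FIH-KO cells kept at 1% O2 (hypoxia), for 16 hours as the study's text gives it. The other 4 libraries, from wild-type (WT) LLC cells under the same 2 oxygen levels, served as the comparison for the response. Every value below is a change of 1% over 21% O2 within a genotype unless stated otherwise.

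As background, cells sense oxygen through hydroxylases that act on the hypoxia-inducible factor (HIF) α subunits. The prolyl hydroxylases PHD1 to PHD3, encoded by Egln2, Egln1 and Egln3, mark HIF-α for the ubiquitin ligase that contains VHL, while FIH hydroxylates an asparagine in the C-terminal activation domain of HIF-α and so keeps the coactivators CBP and p300 away from it. When oxygen falls, HIF-α accumulates, pairs with ARNT and binds hypoxia response elements with the core RCGTG. Its classical target genes encode glucose transporters, glycolytic enzymes, collagen hydroxylases, mitophagy receptors and angiogenic factors.

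Total counts ran from 14519731 to 18177016 per library, the 10 most counted genes took 4.91 to 5.96% of them, and 13933 of 53700 genes passed the filter on low counts. Levels are given as CPM (counts scaled to a common library size) after TMM scaling, changes as log2 fold changes ± SE from edgeR's quasi-likelihood fit to all 8 libraries, and a gene is called changed at a Benjamini-Hochberg adjusted p under 0.05. Libraries of the same group differed by more than sampling noise, at a chi-square over degrees of freedom of 6.18 to 25.9. The largest of these values belonged to the FIH-KO hypoxia pair, in which 7.82% of genes averaging 50 counts or more differed by over 1.5-fold, against 3.81% in the FIH-KO normoxia pair. The labels do not say whether the libraries of a group came from separate cultures, so p-values measure only the spread between these libraries. Of 6 markers of lung cancer epithelium 3 were tested. Krt8 (5579 and 4955 counts in normoxia, 4347 and 3324 in hypoxia) and Krt18 were not called. Krt19, at far lower counts, was called higher. Epcam was at 0 counts in all 4 libraries. Of 6 lung epithelium markers none passed the filter, with Nkx2-1 and Sftpc at 0. The fibroblast list had 5 of 7 members tested and none called, but all 5 had log2 changes below 0 at 1% O2, with a median of -0.60 (-1.31 in hypoxia replicate 1, -0.22 in replicate 2) and a summed level of 2193 and 1830 CPM in normoxia and 1328 and 1724 CPM in hypoxia, mostly from Col3a1, a fibrillar collagen at 36468 and 32258 counts in normoxia and 21141 and 26220 in hypoxia. Of the leukocyte markers Ptprc reached at most 1 count, Cd68 had 48 to 115 counts and was not called, and Csf1r was called higher, from 1 and 0 to 31 and 10 counts, while the endothelial marker Cdh5 had at most 5 counts.

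Hif1an itself stood at 34.8 and 37.7 CPM in FIH-KO normoxia and at 45.5 and 51 CPM in FIH-KO hypoxia. All 4 values lay below those of the WT libraries, which ran from 82.3 to 90.2 CPM, in the direction the labels give, although a guide edit need not lower the RNA. Within FIH-KO cells Hif1an was 1.33-fold higher at 1% O2 (log2 0.41 ± 0.12, adjusted p = 0.031), a call that was lost when hypoxia replicate 2 or either normoxia library was left out, with an adjusted p of up to 0.14.

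FIH-KO cells changed 2345 of the 13933 tested genes at 1% O2, which is 16.8%. Of these, 1231 rose (8.84% of tested genes) and 1114 fell (8%). The same shares are the background for every count of called list members in FIH-KO cells below. Large changes were mainly rises: past 2-fold there were 496 rises (3.56%) and 211 falls (1.51%), past 4-fold 197 rises and 21 falls, and past 8-fold 102 rises and 2 falls. The median log2 change over all tested genes was -0.03. A fit of the 4 FIH-KO libraries alone, which takes no spread from the closer WT pairs, called 1289 genes, 808 higher and 481 lower. In all 2345 called genes the hypoxia and normoxia libraries did not overlap in CPM, a pattern that 25.9% of all tested genes showed upward and 29.3% downward. The number of calls rested in part on single libraries: it was 1447 without hypoxia replicate 1, 1097 without normoxia replicate 1 and 1484 without normoxia replicate 2. Of 147 called genes that the text could name by its rule, 106 kept their call whichever FIH-KO library was left out, among them every one with an adjusted p under 0.0045. These are bulk samples, so more RNA per cell and more cells with a transcript cannot be told apart.

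**Figure D1:**
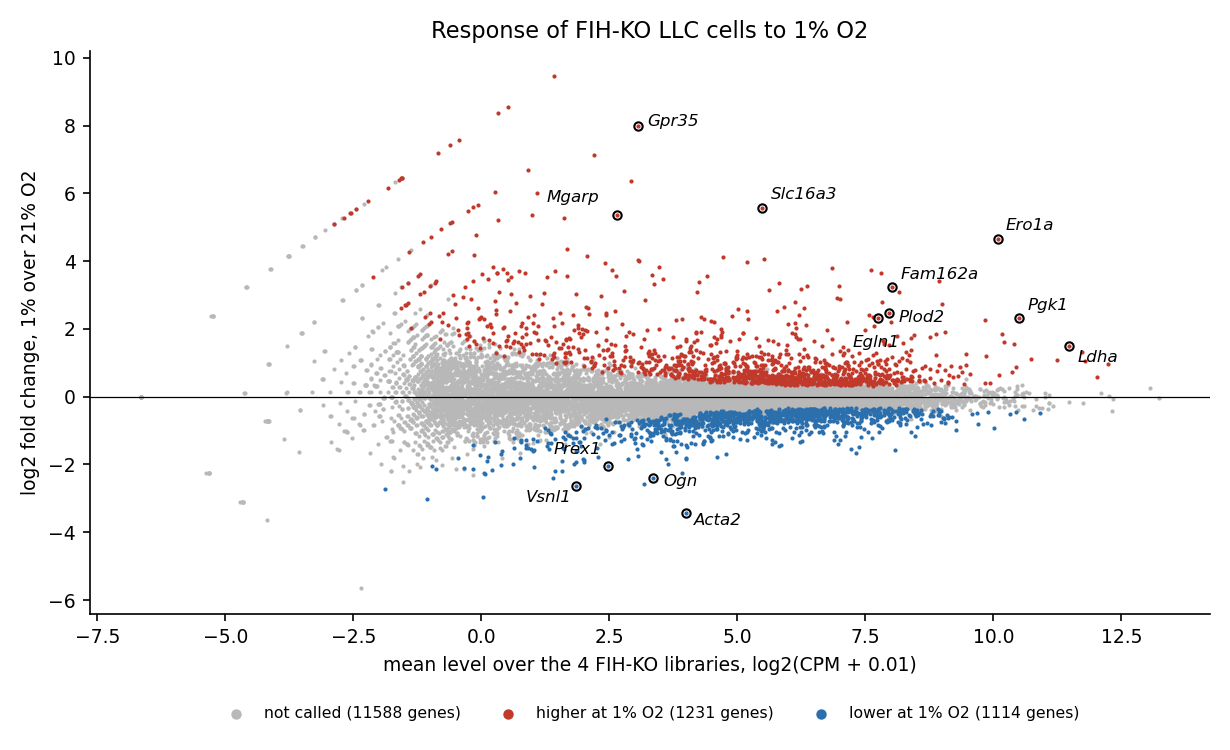
The log2 fold change of FIH-KO cells at 1% over 21% O2 (vertical axis) against the mean level over the 4 FIH-KO libraries as log2(CPM + 0.01) (horizontal axis), 1 point per tested gene. Red points are the 1231 genes called higher and blue points the 1114 called lower, and rises reach further from 0 than falls, from Gpr35 at 8.0 to Acta2 at -3.43.

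The 3 smallest p-values belonged to 4930447F24Rik, Fam162a and Unc13a. 4930447F24Rik, a gene named by its clone, rose from 4.05 and 4.70 to 75.0 and 61.9 CPM (log2 3.96 ± 0.19, adjusted p = 3.9e-07). Fam162a, a mitochondrial protein also known as HGTD-P, was at 50 and 49.1 CPM in normoxia and at 529 and 408 CPM in hypoxia. It was thus 9.45-fold higher (log2 3.24 ± 0.15, adjusted p = 3.9e-07). Unc13a, a factor for vesicle priming at synapses, rose from 15 and 15.4 to 118 and 157 CPM (3.17 ± 0.16, adjusted p = 4.3e-07). In all 3 genes the lowest hypoxia library exceeded the highest normoxia library several times over. These genes were chosen for their p-values after those were seen.

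Among genes averaging 50 counts or more, the largest rises were of genes that were barely read in normoxia. Gpr35, a G protein-coupled receptor, had 1 count in each normoxia library and 413 and 116 counts in the hypoxia libraries, a ratio of depth-scaled counts of 292 with a 95% interval of 80.5 to 2420 that covers counting error only. 2610528A11Rik had 2 and 0 counts in normoxia and 219 and 71 in hypoxia, a ratio of 160 (43.9 to 1330). In both genes hypoxia replicate 1 held several times the counts of replicate 2. Mgarp, which encodes a mitochondrial protein of steroidogenic and other cells, was at 0.298 and 0.28 CPM in normoxia and 13.1 and 11.4 CPM in hypoxia (5.37 ± 0.33, adjusted p = 1.6e-06). The same rule gave Car6, Slc16a3, Ero1a, Ace, Cbln3, Ankrd37, Prl2c3, Ciart and Avil, with log2 changes of 4.02 to 6.36. Prl2c3 belongs to a family of near-identical genes, so its reads may not be its own, and it differed strongly between the hypoxia libraries (141 and 32.7 CPM). In all, 60 genes called higher had at most 3 counts in each normoxia library, and their fitted fold changes are not bounds.

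The largest fall was that of Acta2, which encodes smooth muscle α-actin, a contractile protein. It had 12 and 46.1 CPM in normoxia and 0.937 and 4.49 CPM in hypoxia, so that the groups did not overlap while both pairs were spread widely (-3.43 ± 0.64, adjusted p = 0.004). The fibroblast markers, mostly Col3a1 by level, also stood lower in hypoxia (median -0.60), though none was called. Their median was -1.31 in hypoxia replicate 1 and -0.22 in replicate 2. The part of these markers in the fall of Acta2 and of the matrix genes described further on was not tested. Vsnl1, a neuronal calcium sensor, fell from 6.49 and 5.88 to 0.375 and 1.63 CPM (-2.63 ± 0.49, adjusted p = 0.0039). Ogn, which encodes the small matrix proteoglycan osteoglycin, fell from 17.3 and 16.9 to 2.56 and 3.9 CPM (-2.40 ± 0.28, adjusted p = 0.00019). Prex1, a Rac exchange factor, fell from 8.99 and 8.84 to 2 and 2.28 CPM (-2.06 ± 0.33, adjusted p = 0.0016). The other falls under the rule were of Inmt, Klhdc8a, Wdr5b, Cemip, Ablim1, Enho, Hacd4 and Kyat3, at -2.58 to -1.91, of which the calls were lost for Enho without normoxia replicate 1 (adjusted p = 0.068) and for Kyat3 without hypoxia replicate 1 or normoxia replicate 2 (up to 0.077). Wdr5b overlaps the end of Fam162a on the opposite strand, so that its reads are certain only if the counting used strand. 2 other called-lower genes had at most 3 counts in each hypoxia library.

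The core of the hypoxia response element was looked for in the 500 bases upstream of each gene's canonical transcript start (GRCm39, GENCODE). Windows with ACGTG on either strand made up 40.8% of genes called higher (501 of 1227), 33.2% of genes called lower (370 of 1114), 33.3% of all tested genes and 28.6% of all annotated protein-coding genes. Windows with GCGTG made up 54.3%, 53.5% and 51.5% of the higher, lower and tested genes. Windows with either form made up 70.7%, 67.2% and 65.7% of the same sets. Of genes called higher past 2-fold, 39.6% held ACGTG, 48.1% GCGTG and 65.9% either form. Past 4-fold these shares were 41.8%, 45.9% and 66%, so the larger rises had about the share of all tested genes for either form. Among the 60 called-higher genes of 7 lists tied to oxygen (sensors, glycolysis, glycogen, mitophagy, secreted factors, collagen hydroxylases, demethylases), 34 windows, or 56.7%, held ACGTG and 30, or 50%, held GCGTG. Their median GC content was 55.9%, against 51.8% for all tested genes, and the part of base composition in these shares was not tested. A match is a description of letters in a window, not a binding site. The 8 of those 60 genes with the smallest p and such a core are printed, because their changes carry much of what follows. Each sequence reads 5′ to 3′ along the gene's strand, with the core nearest the start in capitals, where CACGT is the core read from the opposite strand.
Plod2: cgtgaggcggtgCACGTaggcgtaggcga
P4ha2: tgtgcatcgcatACGTGcagcgcgtggcg
Egln1: actacaaatcacACGTGgaaccgacagtc
Pgk1: aaatggaagtagCACGTctcactagtctc
Ero1a: cgcgcgccgctgCACGTccgcaggggagg
Pfkp: gcctctgcgcccACGTGgtgggctgacag
Bnip3: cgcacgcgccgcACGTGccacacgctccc
Gys1: ttgtagcaaccaCACGTcctccacgatcc

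The Plod2 window lies at chr9:92424165-92424193 (+ strand), with its core 99 to 95 bases before the canonical start, inside a UTR exon of a longer Plod2 transcript and an exon of the antisense gene B430319G15Rik. That of P4ha2 lies at chr11:53991660-53991688 (+), 78 to 74 bases before the start and in a UTR exon of another P4ha2 transcript. The windows of Egln1 (chr8:125677017-125677045, -), Pgk1 (chrX:105230563-105230591, +), Pfkp (chr13:6699107-6699135, -) and Bnip3 (chr7:138511326-138511354, -) overlapped no annotated gene, and their cores began 168, 131, 153 and 89 bases before the start. The Bnip3 window of 500 bases held 4 ACGTG matches over both strands. In Egln1, Pfkp and Bnip3 the capitals follow a c. The resulting CACGTG reads the same on both strands and was counted on each. The Ero1a window (chr14:45556076-45556104, -) lies in the span of Ero1a outside its exons, with the core from 56 bases before the start, and that of Gys1 (chr7:45083988-45084016, +) lies in a UTR exon of the neighbouring gene Ruvbl2 on the other strand, 246 bases before the start.

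Among the oxygen-sensing genes themselves the rises were those of hydroxylase genes, Vhl and Hif1an. Egln1, which encodes PHD2, was at 67.9 and 74.5 CPM in normoxia and at 379 and 338 CPM in hypoxia. Both hypoxia libraries stood well above both normoxia libraries, a 5.03-fold rise (log2 2.33 ± 0.14, adjusted p = 1.4e-06). Egln3, which encodes PHD3, rose from 245 and 163 to 823 and 642 CPM (1.84 ± 0.18, adjusted p = 5.6e-05), and Vhl from 19.5 and 21.1 to 43.7 and 37.6 CPM (1.00 ± 0.14, adjusted p = 0.00065). Egln2, which encodes PHD1, had 47.6 and 47.2 CPM in normoxia and 35.3 and 31.7 CPM in hypoxia (-0.50, adjusted p = 0.031), a call that was lost when any of the 4 libraries was left out (adjusted p up to 0.13). Arnt2, a dimerization partner of HIF-α, was called lower at low levels (-1.46, adjusted p = 0.021, up to 0.12 without hypoxia replicate 1 or either normoxia library). Hif1a stood at 353 and 316 CPM in normoxia and 364 and 436 CPM in hypoxia and was not called (0.26, adjusted p = 0.2). Arnt (0.06), Ep300 (0.16), Cited2 (0.25) and Crebbp (0.29) were not called either, and Epas1 and Hif3a did not pass the filter. Of 11 tested genes of the list, 4 rose and 2 fell, against 8.84% and 8% of all tested genes. The list's median log2 change was 0.26, beside -0.03 for all tested genes.

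**Figure D2:**
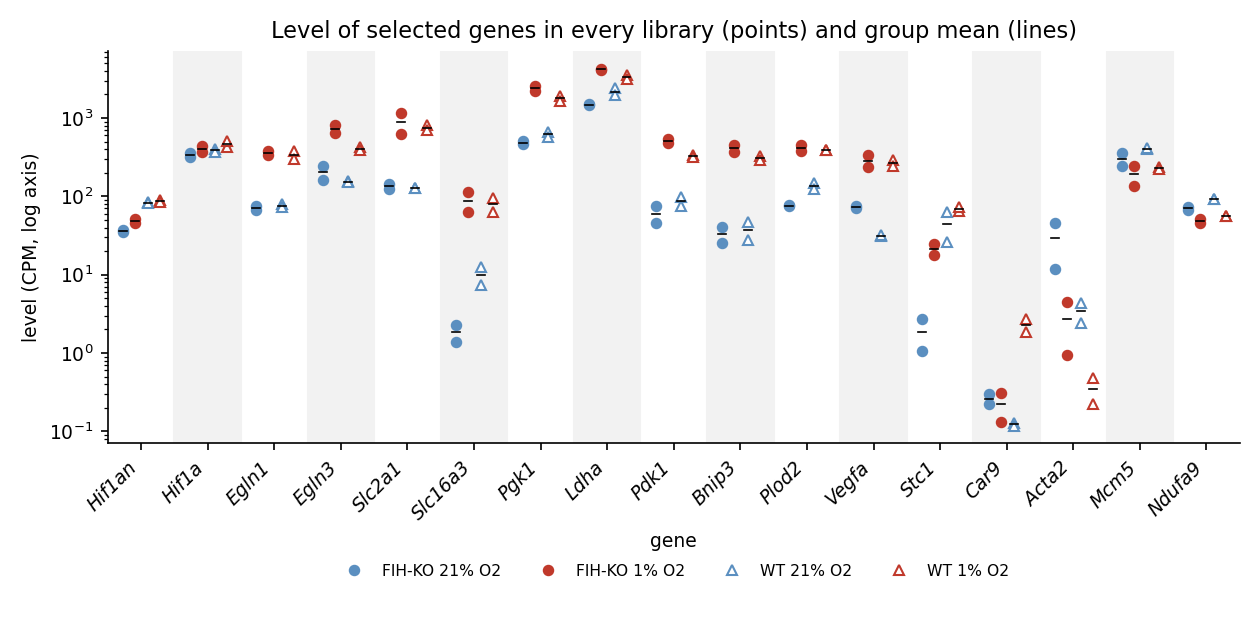
CPM on a log axis for 17 genes in each of the 8 libraries, with filled circles for FIH-KO and open triangles for WT cells, blue for 21% and red for 1% O2, 1 point per library and a short line at the group mean. The hypoxia libraries of FIH-KO cells lie above their normoxia libraries for Egln1, Slc16a3, Pgk1 and Vegfa, and Hif1an lies lower in FIH-KO cells than in WT cells under both oxygen levels.

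Glucose uptake, glycolysis and lactate export had the highest median of the 27 lists that are plotted together here, with 18 of 28 tested members higher, 3 lower and a median log2 change of 1.32. The transporter gene Slc2a1, which encodes GLUT1, was at 144 and 124 CPM in normoxia and at 1157 and 626 CPM in hypoxia (2.73 ± 0.23, adjusted p = 1.7e-05). Hk2, the hexokinase that traps glucose as glucose 6-phosphate, rose from 92.8 and 90 to 503 and 337 CPM (2.20 ± 0.18, adjusted p = 1.7e-05). Hypoxia replicate 1 was the higher of the pair for both, and the groups did not overlap. Pfkp, a phosphofructokinase subunit of the committed step, rose from 62.6 and 51.3 to 461 and 326 CPM (2.79 ± 0.18, adjusted p = 2.3e-06), whereas the muscle-type subunit Pfkm was called lower (-0.53, adjusted p = 0.019), a call lost without hypoxia replicate 1 or normoxia replicate 1 (up to 0.17). The other steps from glucose 6-phosphate to pyruvate each had a called member. They included Gpi1 (1.86), Aldoa (1.57), Tpi1 (1.60), Gapdh (1.04), Pgk1 (2.31), Pgam1 (1.57), Eno1 (1.32) and Pkm (0.97). Pgk1, the phosphoglycerate kinase with the core shown above, went from 468 and 503 to 2597 and 2225 CPM, a 4.97-fold rise (adjusted p = 1.4e-06).

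At the branch from pyruvate, Pdk1, the kinase that shuts pyruvate dehydrogenase, rose from 74.4 and 45.6 to 544 and 481 CPM (3.09 ± 0.21, adjusted p = 2.9e-06). Its relative Pdk2 was low and fell, from 5.36 and 3.53 to 0.687 and 0.976 CPM (-2.41 ± 0.45, adjusted p = 0.0039). The lactate dehydrogenase genes also moved in opposite directions, since Ldha went from 1466 and 1497 to 4140 and 4272 CPM (1.51 ± 0.14, adjusted p = 3.3e-05) while Ldhb, read at 4.17 and 4.2 CPM in normoxia, had 1.31 and 2.34 CPM in hypoxia (-1.20, adjusted p = 0.027, up to 0.17 without hypoxia replicate 1 or either normoxia library). The lactate exporter gene Slc16a3, which encodes MCT4, showed the largest rise of the list. It was at 2.26 and 1.40 CPM in normoxia and at 112 and 62.7 CPM in hypoxia, a 47.9-fold rise (5.58 ± 0.38, adjusted p = 3.3e-06). Slc16a1, which encodes the related transporter MCT1, was at 360 and 311 CPM in normoxia and 387 and 336 CPM in hypoxia, and was not called (0.11, adjusted p = 0.6). The count of 18 rises was 17 or 18 whichever library was left out.

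Of 19 tested genes of glycogen metabolism, 6 rose and 1 fell, against 8.84% and 8% of all tested genes, with a median of 0.17. Gys1, glycogen synthase, rose from 79.2 and 76.3 to 377 and 278 CPM (2.07 ± 0.15, adjusted p = 4.3e-06), and Pgm1, phosphoglucomutase, from 68.5 and 51.2 to 378 and 257 CPM (2.41 ± 0.21, adjusted p = 1.9e-05). The branching enzyme gene Gbe1 (1.28, adjusted p = 0.0031), the phosphatase subunit gene Ppp1r3b (3.09, adjusted p = 4.7e-05) and the glycogen-binding Stbd1 (3.57, adjusted p = 0.00027) were also higher. Epm2a, which encodes laforin, was read at 0 and 0.056 CPM in normoxia and at 4.12 and 3.32 CPM in hypoxia. Gyg, the glycogenin that primes the chain, was the gene that fell, from 22.7 and 22.4 to 11.4 and 13.9 CPM (-0.83, adjusted p = 0.0038).

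Genes of mitophagy and mitochondrial adaptation had 6 of 12 tested members higher and 1 lower, with a median of 0.56. Bnip3, a mitophagy receptor with ACGTG upstream of its start, rose 12.7-fold, from 40.1 and 25.1 to 457 and 369 CPM (3.66 ± 0.25, adjusted p = 3.4e-06). Higd1a, a factor of the respiratory chain, rose from 30.1 and 27.4 to 238 and 197 CPM (2.92 ± 0.16, adjusted p = 7.2e-07). The lowest hypoxia value exceeded the highest normoxia value by far in both. Bnip3l (1.79, adjusted p = 1.9e-05), the matrix protease gene Lonp1 (1.77, adjusted p = 2.3e-05), the mTOR inhibitor gene Ddit4 (1.30, adjusted p = 0.00082) and the Myc antagonist gene Mxi1 (1.03, adjusted p = 0.00075) were called higher as well. These 6 rises held whichever library was left out. The iron-sulfur scaffold gene Iscu had a value of -0.49 (adjusted p = 0.028, up to 0.14 without hypoxia replicate 1 or either normoxia library).

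The nuclear genes of oxidative phosphorylation went the other way, with 24 of 52 tested members lower, none higher and a median of -0.35. The falls were small and the libraries of each pair close. Uqcrc1, a core subunit of complex III, fell from 178 and 171 to 98 and 109 CPM (-0.75 ± 0.10, adjusted p = 0.00065). Ndufa10 of complex I fell from 127 and 119 to 75.8 and 73.9 CPM (-0.71 ± 0.10, adjusted p = 0.00078), and the ATP synthase genes Atp5d (-0.69, adjusted p = 0.0053) and Atp5g3 (-0.57, adjusted p = 0.0032) fell too. The count of falls was 8 without hypoxia replicate 1 and 7 without normoxia replicate 1, while the median stayed between -0.37 and -0.31. Of the 13 genes encoded by mitochondrial DNA none was called, by edgeR's test at the same threshold, with a median of -0.10.

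The TCA cycle and its entry enzymes had 13 of 34 tested members lower and 4 higher, with a median of -0.30. Idh2, the mitochondrial isocitrate dehydrogenase, was at 126 and 132 CPM in normoxia and at 62.3 and 63.8 CPM in hypoxia, a 2.05-fold fall (-1.04 ± 0.12, adjusted p = 0.0002). Ogdh (-0.76, adjusted p = 0.004), a subunit of 2-oxoglutarate dehydrogenase, and Glud1 (-0.67, adjusted p = 0.0027), glutamate dehydrogenase, fell. The 4 higher members were Acly (0.94, adjusted p = 0.00075), the cytosolic enzyme that makes acetyl-CoA from citrate, malic enzyme Me2 (0.93, adjusted p = 0.00032), the phosphatase gene Pdp2 and the transaminase gene Got1 (0.55, adjusted p = 0.0087, 0.067 without normoxia replicate 1). The count of falls was 8 without hypoxia replicate 1 and 5 without normoxia replicate 1.

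**Figure D3:**
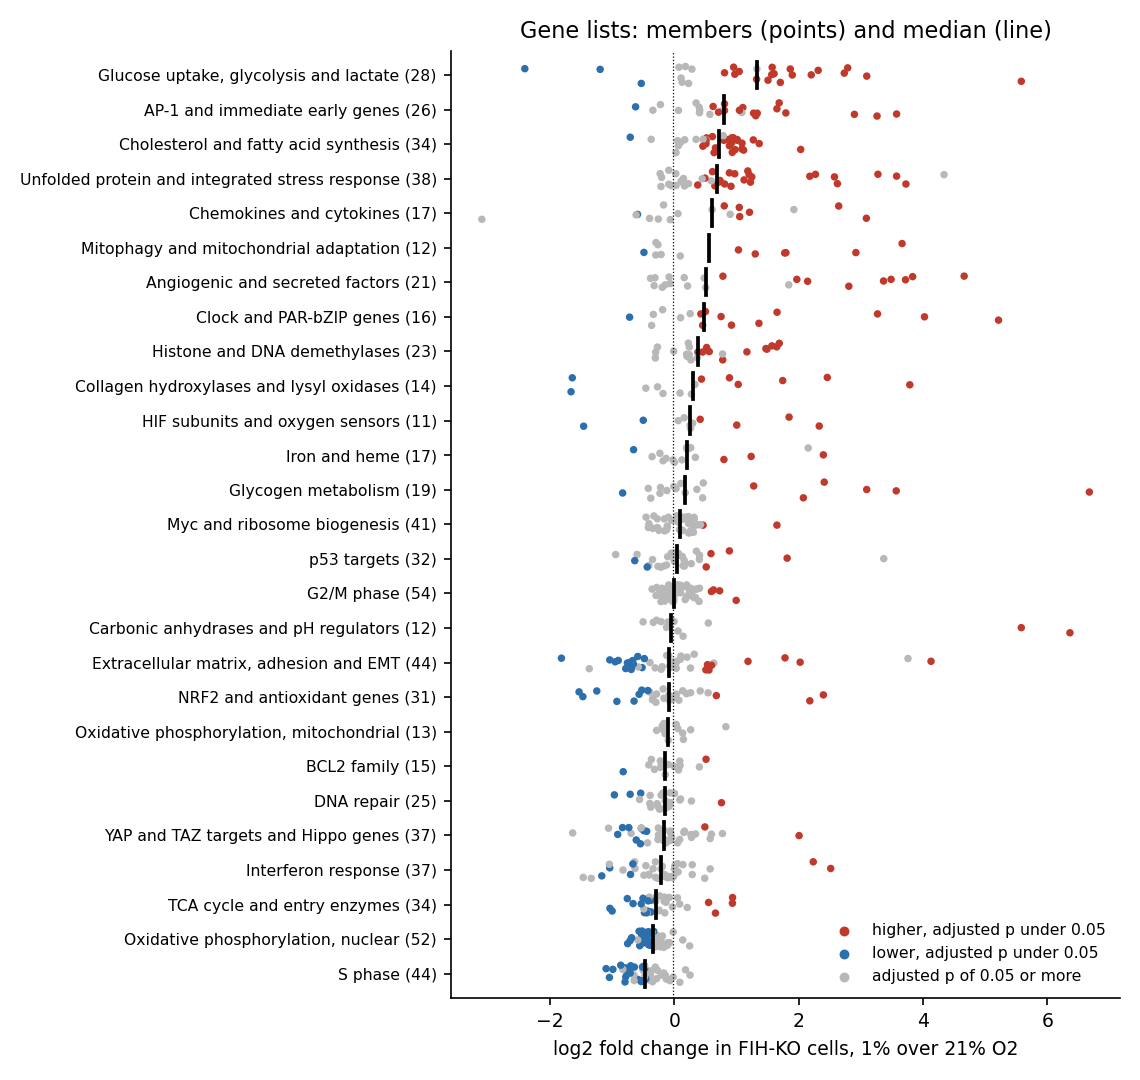
Log2 fold changes in FIH-KO cells at 1% over 21% O2 for the tested members of 27 gene lists, 1 point per gene, with the list's median as a black line and the number of tested members in brackets. Red points were called higher, blue points lower and grey points neither, and the medians run from 1.32 for glucose use to -0.48 for S phase.

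Collagen is cross-linked and folded with the help of prolyl and lysyl hydroxylases that, like the oxygen sensors, use O2. In this list 6 of 14 tested genes rose and 2 fell, against 8.84% and 8% of all tested genes, with a median of 0.30. P4ha2, the α subunit of prolyl 4-hydroxylase with a core 78 bases before its start, rose 13.8-fold, from 16.1 and 14.9 to 260 and 169 CPM (3.79 ± 0.22, adjusted p = 1.1e-06). Plod2, the lysyl hydroxylase that directs collagen cross-links, rose from 77.7 and 74.6 to 453 and 384 CPM (2.46 ± 0.13, adjusted p = 5.2e-07). P4ha1 (1.74, adjusted p = 1.6e-06) and Plod1 (1.03, adjusted p = 0.00016) were also higher. The third α subunit gene, P4ha3, was lower instead, at 20.5 and 14 CPM in normoxia and 3.75 and 7.29 CPM in hypoxia (-1.64 ± 0.30, adjusted p = 0.0035). Loxl3, a lysyl oxidase, fell 3.17-fold, from 267 and 218 to 59.8 and 93.3 CPM (-1.66 ± 0.19, adjusted p = 0.00021).

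Secreted and angiogenic factors had 9 of 21 tested members higher and none lower, with a median of 0.50. Vegfa, the main endothelial growth factor, was at 74.6 and 70.9 CPM in normoxia and at 335 and 234 CPM in hypoxia, a 3.92-fold rise (1.97 ± 0.16, adjusted p = 1.3e-05). Ero1a, the endoplasmic reticulum oxidase that serves the folding of secreted proteins, showed the largest rise of the list, 25.3-fold, from 83.5 and 81 to 2829 and 1335 CPM (4.66 ± 0.29, adjusted p = 1.6e-06). Both hypoxia libraries stood far above normoxia for Ero1a although they differed from each other by more than 2-fold. The vasodilator peptide gene Adm rose from 7.86 and 12.1 to 128 and 78.1 CPM (3.36 ± 0.29, adjusted p = 1.9e-05). Stc1, a stanniocalcin hormone, rose from 1.07 and 2.69 to 24.6 and 18 CPM (3.49 ± 0.44, adjusted p = 0.00036). Pgf (3.72), Stc2 (3.83), Apln (2.14) and Angpt2 (0.78) were also among the 9.

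Among 12 tested genes of pH control 2 rose and none fell, about the 16.8% called among all tested genes in either direction (8.84% higher). The 2 were Slc16a3, counted above with glycolysis, and the secreted carbonic anhydrase gene Car6, and the median was -0.06. Car6 had 5 and 1 counts in normoxia and 394 and 79 in hypoxia, a ratio of 87.1 with a counting interval of 39.7 to 239. Car9, the membrane carbonic anhydrase often used as a hypoxia marker, stayed near the floor, at 0.298 and 0.224 CPM in normoxia and 0.312 and 0.13 CPM in hypoxia (-0.22 ± 0.72, adjusted p = 0.88), and is named here after its values were seen.

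Histone and DNA demethylases, which share the 2-oxoglutarate chemistry of FIH, had 11 of 23 tested members higher and none lower, with a median of 0.38. Kdm3a, which removes methyl groups from histone H3, rose from 130 and 104 to 357 and 338 CPM (1.57 ± 0.15, adjusted p = 5.1e-05). Tet2, a methylcytosine oxidase, rose from 7.8 and 9.79 to 29.6 and 27.1 CPM (1.69 ± 0.16, adjusted p = 4.5e-05). Jmjd6 (1.65, adjusted p = 7.5e-05) and Kdm4b (1.49, adjusted p = 6.9e-05) rose as well.

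Beyond the oxygen pathway, the unfolded protein and integrated stress responses had 22 of 38 tested members higher and none lower, with a median of 0.68. Atf3, a stress-induced transcription factor, was at 2.56 and 3.97 CPM in normoxia and at 50.3 and 28 CPM in hypoxia, an 11.9-fold rise (3.57 ± 0.31, adjusted p = 1.9e-05). Trib3, a pseudokinase induced with it, rose from 23.8 and 23.3 to 289 and 167 CPM (3.27 ± 0.31, adjusted p = 3.9e-05). Aldh1l2, of mitochondrial folate metabolism, rose from 29.1 and 25.8 to 486 and 240 CPM (3.72 ± 0.27, adjusted p = 4.5e-06), and Asns, asparagine synthetase, from 150 and 168 to 376 and 344 CPM (1.18 ± 0.12, adjusted p = 8.2e-05). Hypoxia replicate 1 was the higher of the pair in all 4 genes, and the list's median was 0.77 in that library against 0.46 in hypoxia replicate 2. Atf4, the factor at the head of the integrated stress response, rose from 276 and 289 to 701 and 618 CPM (1.22 ± 0.13, adjusted p = 0.00013), Ddit3, which encodes CHOP, from 10.7 and 7.84 to 72.5 and 37.9 CPM (2.58 ± 0.29, adjusted p = 0.00017), and the chaperone gene Hspa5 from 1069 in each to 2884 and 1763 CPM (1.12 ± 0.20, adjusted p = 0.0029). The count of rises was between 18 and 25 with a library left out.

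Genes of cholesterol and fatty acid synthesis had 23 of 34 tested members higher and 1 lower, with a median of 0.72. Sqle, squalene epoxidase, an enzyme that consumes O2, was at 226 and 150 CPM in normoxia and at 497 and 470 CPM in hypoxia, a 2.57-fold rise (1.36 ± 0.16, adjusted p = 0.00024). Scd2, a desaturase, rose from 1751 and 1340 to 3148 and 3413 CPM (1.09 ± 0.15, adjusted p = 0.00073), and Hsd17b7, of the late cholesterol pathway, from 36.4 and 27.8 to 61.2 and 75.3 CPM (1.09 ± 0.16, adjusted p = 0.001). Hilpda, a lipid droplet protein and known hypoxia gene, rose from 25.1 and 30.4 to 134 and 92.5 CPM (2.03 ± 0.19, adjusted p = 3.9e-05). Normoxia replicate 1 was above replicate 2 for Sqle, Scd2 and Hsd17b7, and without replicate 2 the count of rises was 13. Unlike the stress genes, the list's median was lower in hypoxia replicate 1 (0.55) than in replicate 2 (0.86). Scap, the escort protein of the SREBP factors, was the member that fell, from 191 and 193 to 113 and 122 CPM (-0.71 ± 0.13, adjusted p = 0.0029).

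Clock genes and their PAR-bZIP outputs had 10 of 16 tested members higher and 1 lower, with a median of 0.48. Bhlhe40, a repressor in the clock and a known hypoxia target, rose 9.63-fold, from 17.3 and 13.7 to 162 and 136 CPM (3.27 ± 0.21, adjusted p = 1.9e-06). Ciart, another repressor, rose from 0.893 and 1.01 to 16.7 and 14.4 CPM (4.02 ± 0.27, adjusted p = 2.9e-06), and Nfil3 from 15 and 13.1 to 53.3 and 34.9 CPM (1.65 ± 0.21, adjusted p = 0.00036). Rora, an orphan nuclear receptor, was read at 0 and 0.112 CPM in normoxia and 2.94 and 1.89 CPM in hypoxia. Tef was lower (-0.72, adjusted p = 0.0062, 0.053 without normoxia replicate 2).

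AP-1 and other immediate early genes had 15 of 26 tested members higher and 1 lower, with a median of 0.81. Ier3, an early response gene, rose from 31 and 29.4 to 279 and 171 CPM (2.90 ± 0.21, adjusted p = 4.5e-06). Myc rose from 92.9 and 129 to 467 and 228 CPM, which is a wide spread within hypoxia (1.65 ± 0.30, adjusted p = 0.0032). Klf6 (1.05, adjusted p = 0.00029) and Maff (1.33, adjusted p = 0.0011) rose too, and the phosphatase gene Dusp6 was lower (-0.63, adjusted p = 0.014, 0.14 without normoxia replicate 1). The count of rises was 9 without hypoxia replicate 1 or without normoxia replicate 1. In the list of Myc and ribosome biogenesis, Myc and Nip7 (0.46, adjusted p = 0.047, up to 0.27 without hypoxia replicate 1 or normoxia replicate 1) were the 2 genes called among 41 tested, with a median of 0.08. That count became 7 higher without normoxia replicate 2 and 3 lower without normoxia replicate 1.

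S phase genes fell in part. Of 44 tested, 19 were lower and none higher, with a median of -0.48. Chaf1b, a chromatin assembly factor, fell 2.14-fold, from 34.8 and 41.9 to 16.5 and 19.3 CPM (-1.10 ± 0.15, adjusted p = 0.0005). Gins2 (-0.99, adjusted p = 0.0038), of the replicative helicase, and Wdr76 (-0.86, adjusted p = 0.0038) fell too. Mcm6, another helicase subunit, named after its values were seen, went from 378 and 420 to 181 and 279 CPM (-0.80 ± 0.17, adjusted p = 0.0077). These falls were deeper in hypoxia replicate 1, where the list's median was -0.70, than in replicate 2, where it was -0.28, and the count of falls was 6 without hypoxia replicate 1, 34 without hypoxia replicate 2 and 4 without normoxia replicate 2.

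For G2/M genes the hypoxia libraries lay on opposite sides of normoxia. The list's median was -0.27 in hypoxia replicate 1 and 0.26 in replicate 2, and -0.01 in the fit. Mki67, the proliferation marker, had 605 and 704 CPM in normoxia, 470 CPM in hypoxia replicate 1 and 891 CPM in replicate 2 (0.06 ± 0.22, adjusted p = 0.9), and Top2a had 770 and 697, 582 and 869 CPM (-0.02 ± 0.17, adjusted p = 0.97). Both are named after their values were seen. Over all tested genes 8.84% were called higher and 8% lower. Of 54 tested genes 4 were called higher and none lower, but 15 were called higher and none lower without hypoxia replicate 1, and 2 higher and 15 lower without hypoxia replicate 2. G2e3, a ubiquitin ligase, was higher in both libraries (71.6 and 69.6 to 128 and 153 CPM, 0.99 ± 0.12, adjusted p = 0.00027), as was the checkpoint kinase gene Bub1 (180 and 168 to 237 and 299 CPM, 0.63 ± 0.12, adjusted p = 0.0054). The calls of Cenpf (0.73) and Gas2l3 (0.59) were lost without hypoxia replicate 2 or either normoxia library, with adjusted p up to 0.11 and 0.1.

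**Figure D4:**
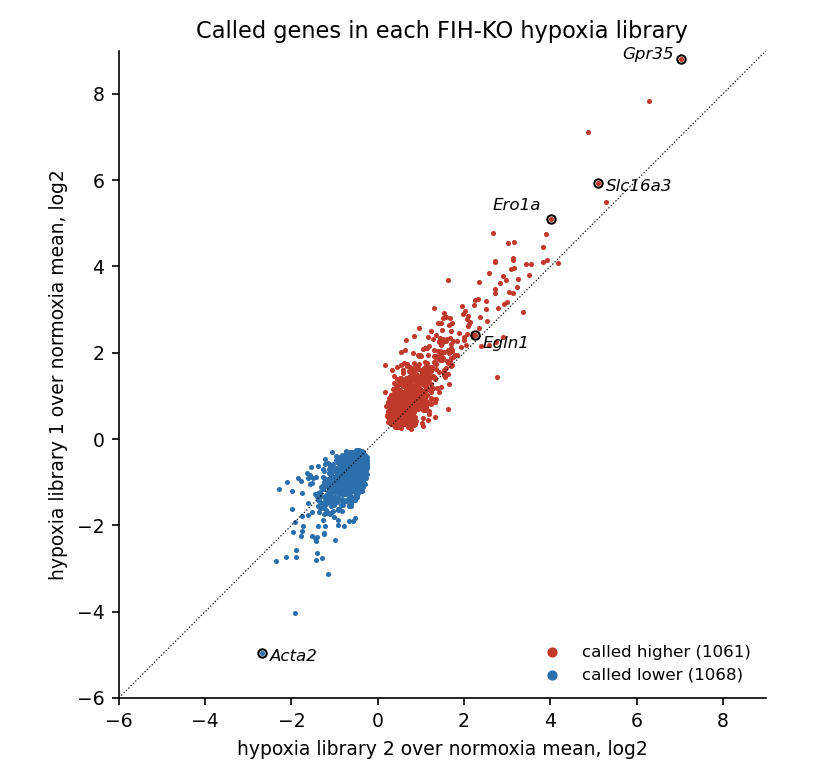
Log2 ratio of each FIH-KO hypoxia library to the mean of the normoxia libraries, replicate 2 on the horizontal and replicate 1 on the vertical axis, for the 2129 called genes averaging 50 counts or more (1061 higher, 1068 lower). The points follow the dotted diagonal, with more of them further from 0 on the axis of replicate 1.

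The response was deeper in hypoxia replicate 1 for most called genes, though not for all lists. Of 1231 genes called higher, 909 (73.8%) stood further above normoxia in hypoxia replicate 1 than in replicate 2, with median log2 ratios of 0.86 and 0.68. Of 1114 genes called lower, 737 (66.2%) stood further below in replicate 1, with medians of -0.69 and -0.58. The total counts of these libraries were 16279735 and 15385603 and their mitochondrial shares 2.26% and 2.61%, within the range of 1.59 to 2.66% of all 8 libraries. Whether cell density, oxygen or handling differed between them was not tested.

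Of 17 tested chemokine and cytokine genes 6 rose, against 8.84% of all tested genes, and 1 fell, with a median of 0.61. The alarmin gene Il33 rose from 0.298 and 0.224 to 1.94 and 2.6 CPM (3.09 ± 0.47, adjusted p = 0.0011) and Il11, an interleukin of the IL-6 family, from 1.01 and 1.23 to 5.75 and 8.4 CPM (2.64 ± 0.32, adjusted p = 0.00026). Spp1, which encodes osteopontin, was abundant and rose from 535 and 578 to 1425 and 1147 CPM (1.21 ± 0.16, adjusted p = 0.00055). The calls of Lif (1.05, adjusted p up to 0.063) and of Tgfb3, which was lower (-0.59, up to 0.15), were lost without hypoxia replicate 1 or normoxia replicate 1, and that of Tgfb3 also without normoxia replicate 2. The list's count of rises was 3 without hypoxia replicate 1 and 3 without normoxia replicate 1. Of 37 tested interferon response genes 2 rose and 4 fell, which is about the 16.8% called among all tested genes, with a median of -0.22. H2-K1, a class I major histocompatibility chain, rose from 11 and 10.8 to 81.3 and 42.8 CPM (2.51 ± 0.25, adjusted p = 6.9e-05), and the exonuclease gene Isg20 from 7.26 and 8.34 to 48.9 and 24.5 CPM (2.23 ± 0.29, adjusted p = 0.00046). Lgals3bp (-0.67), Ifit2 (-1.17, adjusted p = 0.016, up to 0.087 without a normoxia library), Bst2 (-1.04, adjusted p = 0.016, up to 0.14 without hypoxia replicate 1 or normoxia replicate 2) and Ifi35 (adjusted p = 0.024, up to 0.22 without hypoxia replicate 2 or normoxia replicate 1) were the members called lower. The count of falls was 2 without normoxia replicate 1 and 2 without normoxia replicate 2. H2-K1 belongs to a family of near-identical genes.

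Of 44 tested genes of matrix, adhesion and EMT 14 fell and 8 rose, against 8% and 8.84% of all tested genes. The median was -0.09, beside -0.60 for the fibroblast markers, of which none was called. Col8a1, a network-forming collagen, fell from 21.9 and 27.6 to 5.06 and 8.98 CPM (-1.82 ± 0.26, adjusted p = 0.00081), and Timp2, an inhibitor of metalloproteinases, from 497 and 550 to 265 and 343 CPM (-0.78 ± 0.13, adjusted p = 0.0022). The matricellular gene Sparc (-0.66, adjusted p = 0.0095, up to 0.076 without hypoxia replicate 1 or normoxia replicate 2) and the laminin gene Lama5 (-0.59, adjusted p = 0.011, 0.066 without normoxia replicate 2) were called lower. Ankrd37, a nuclear ankyrin protein induced by hypoxia, was placed in this list and rose from 3.27 and 2.41 to 47.9 and 51.5 CPM (4.13 ± 0.25, adjusted p = 1.4e-06). The metalloproteinase gene Mmp10 rose (2.02 ± 0.35, adjusted p = 0.0023), while Tnc (1.78, adjusted p = 0.022, up to 0.12 without hypoxia replicate 2 or either normoxia library) and the EMT factor gene Snai2 (0.56, adjusted p = 0.0072, 0.054 without normoxia replicate 1) did not keep their calls. The count of falls was 4 without hypoxia replicate 1 and 3 without normoxia replicate 2, and that of rises 2 without normoxia replicate 1 and 4 without hypoxia replicate 1 or normoxia replicate 2.

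YAP and TAZ targets and Hippo genes had 8 of 37 tested members lower and 2 higher, against 8% and 8.84% of all tested genes. Their median was -0.17. The receptor tyrosine kinase gene Axl fell from 498 and 623 to 284 and 344 CPM (-0.84 ± 0.14, adjusted p = 0.0018). Amot, which encodes the YAP-binding angiomotin, had 270 and 238 CPM in normoxia and 110 and 196 CPM in hypoxia (-0.73, adjusted p = 0.029, up to 0.17 without hypoxia replicate 1 or either normoxia library), and Amotl2 was lower as well (-0.91, adjusted p = 0.0072, 0.079 without normoxia replicate 2). Areg, an EGFR ligand, rose from 9.59 and 10.8 to 57.8 and 23.9 CPM (2.01 ± 0.32, adjusted p = 0.0015), and Lats1, a Hippo kinase, was higher by 0.49 (adjusted p = 0.012, 0.088 without normoxia replicate 1). The count of falls was 4 without normoxia replicate 1 and 3 without normoxia replicate 2.

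Antioxidant genes under NRF2 had 8 of 31 tested members lower and 3 higher, against 8% and 8.84% of all tested genes. Their median was -0.09. Nqo1, a quinone reductase, had 295 and 146 CPM in normoxia and 96.4 and 55.8 CPM in hypoxia (-1.53 ± 0.32, adjusted p = 0.0069, 0.081 without normoxia replicate 1). Gstm1, a glutathione transferase of a family of similar genes, fell from 298 and 188 to 102 and 72.3 CPM (-1.47 ± 0.20, adjusted p = 0.0006), and Gpx1, glutathione peroxidase, from 84.3 and 100 to 48.9 and 48.3 CPM (-0.93 ± 0.13, adjusted p = 0.00063). Txn1 was lower by a call that was lost without normoxia replicate 1 (adjusted p = 0.009, then 0.074). The higher members were Hmox1, the cystine transporter gene Slc7a11 (2.18, adjusted p = 0.00096), which also counted among the stress genes, and Sqstm1 (adjusted p = 0.041, up to 0.25 without hypoxia replicate 1 or either normoxia library). The count of falls was 14 without hypoxia replicate 1, 5 without hypoxia replicate 2 and 2 without normoxia replicate 1, and that of rises 6 without hypoxia replicate 2. Of 17 iron and heme genes 3 rose and 1 fell, against 8.84% and 8% of all tested genes, with a median of 0.19. Hmox1, heme oxygenase, was at 22.3 and 24.9 CPM in normoxia and 180 and 68.5 CPM in hypoxia (2.40 ± 0.37, adjusted p = 0.0012). Tfrc, the transferrin receptor, showed the reverse order of the hypoxia libraries, at 314 and 597 CPM against 170 and 218 CPM in normoxia (1.23 ± 0.24, adjusted p = 0.0045, 0.050 without normoxia replicate 1). The ferritin heavy chain gene Fth1 was lower (-0.66, adjusted p = 0.011, 0.076 without normoxia replicate 1) and the ferroxidase gene Cp higher (0.80, adjusted p = 0.012, 0.083 without normoxia replicate 2).

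Genes of cell death and damage were called at about the share of all tested genes (16.8%). In the BCL2 family of 15 tested genes, the anti-apoptotic Bcl2l1 fell from 178 and 166 to 96.4 and 97.6 CPM (-0.82 ± 0.10, adjusted p = 0.00031), with all 4 libraries close within their pairs. Bcl2l2 was the other call (0.51, adjusted p = 0.022, up to 0.14 without hypoxia replicate 2 or normoxia replicate 1), and the median was -0.15. Of 32 p53 targets 4 rose and 2 fell, with a median of 0.04: Gadd45a (1.81), Sesn2 (0.88), Cdkn1a (0.59) and Mdm2 (0.51) upward, each higher in hypoxia replicate 1 than in replicate 2, and Ccnd1 and Ei24 downward. None of the 4 rises kept its call without hypoxia replicate 1 or without normoxia replicate 2, 1 of them did without normoxia replicate 1, and adjusted p reached 0.27. The list had 7 rises and 4 falls without hypoxia replicate 2. DNA repair had 1 of 25 tested genes higher, the checkpoint kinase gene Atr (0.76), and 3 lower, among them Xrcc3 and Rad51d, with a median of -0.16, and 11 lower without hypoxia replicate 2 and 1 without hypoxia replicate 1, where the calls of Xrcc3 (adjusted p up to 0.13) and Rad51d (up to 0.1) were lost.

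Further lists held genes that the study measured by qPCR in related samples or named from RNA-Seq, so their direction here is not independent evidence. Of 13 tested qPCR genes 11 rose and 1 fell, with a median of 2.01. Cdca3 and Aurkb were also qPCR genes of the study but stood in the G2/M list. Neither was called, at 0.04 (adjusted p = 0.91) and -0.12 (adjusted p = 0.56). Of 11 RNA-Seq genes, with Hif1an counted among them, 4 rose and 2 fell, with a median of 0.41. Cdc25a (0.03), Npm1 (0.23), Bmf (-0.37), Efna5 (0.63) and Dtna (0.73) were among those not called in FIH-KO cells, with adjusted p of 0.16 or more.

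The question of the design is how this response compared with that of WT cells, which shares no library with it. WT cells had 4509 calls, or 32.4% of tested genes, of which 2349 rose (16.9%) and 2160 fell (15.5%), and past 2-fold 1030 rose (7.39%) and 394 fell (2.83%). The genotypes shared 1985 calls, all in the same direction (1103 higher, 882 lower). These were 84.6% of the FIH-KO calls and 44% of the WT calls. A further 360 genes were called in FIH-KO cells alone and 2524 in WT cells alone, but passing in 1 genotype and not in the other is not a tested difference. The FIH-KO libraries were more spread, but the fit used 1 spread per gene for both genotypes. Of the 2345 FIH-KO calls, 2318 (98.8%) had the same sign in WT cells. Over 13933 genes, which do not count as independent samples, the log2 changes had a Pearson r of 0.759 and a Spearman rho of 0.732. The median size of the change over FIH-KO calls was 0.71 in FIH-KO and 0.79 in WT cells, and over WT calls 0.47 and 0.72. Each set was chosen by its calls in 1 genotype, which tends to raise the median of that genotype.

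**Figure D5:**
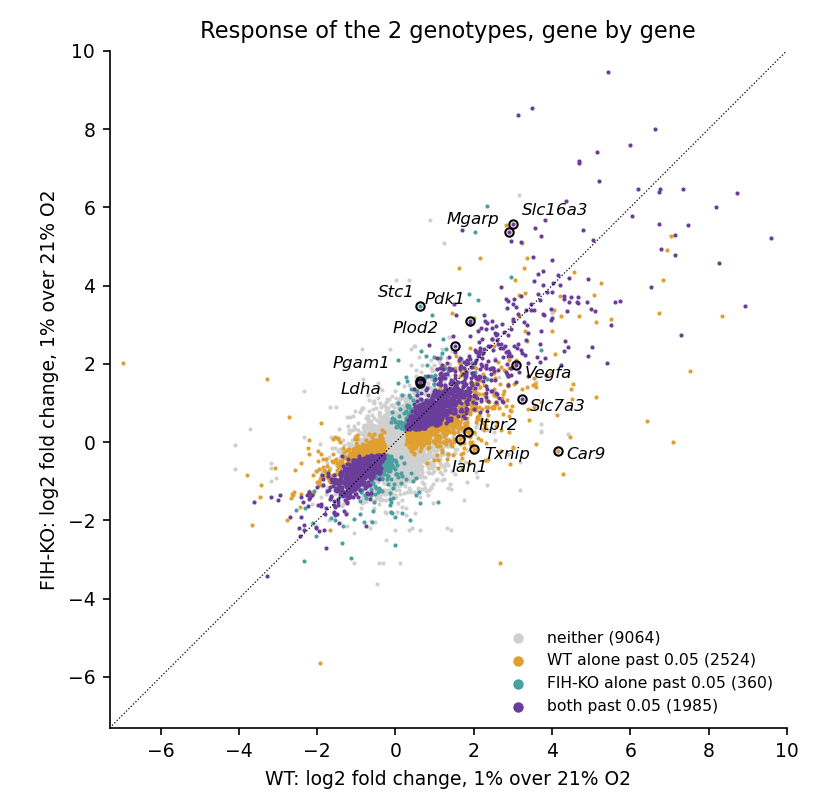
Log2 fold change at 1% over 21% O2 in FIH-KO cells against that in WT cells, 1 point per tested gene, coloured by where the gene was called (1985 in both, 360 in FIH-KO alone, 2524 in WT alone, 9064 in neither). Genes called in both lie in the quadrants where the signs agree.

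The difference between the responses, FIH-KO minus WT, passed an adjusted p of 0.05 for 0 genes in edgeR, where 925 genes (6.64%) had an unadjusted p under 0.05, 352 (2.53%) with the larger and 573 (4.11%) with the smaller value in FIH-KO cells. DESeq2's Wald test called 40 genes (0.287%), 15 with the larger and 25 with the smaller value in FIH-KO cells, while edgeR called 39 without hypoxia replicate 1, of which 13 were among those 40. The genes named from here on for their difference were chosen after these values were seen. In simulated counts edgeR recovered 41 of 97 differences of 2-fold and DESeq2 47 of 97. False calls in the whole run were 12 with edgeR and 25 with DESeq2. The simulation changed few genes, in FIH-KO hypoxia alone, and gave every group the same spread per gene. In these data many genes changed and the FIH-KO hypoxia pair was the most spread, so recovery and false calls may differ.

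In the glycolysis list 11 of 28 tested members (39.3%, against 6.64% of all tested genes) had an unadjusted p under 0.05 for the difference, all 11 with the larger value in FIH-KO cells. Pgam1, phosphoglycerate mutase, was at 141 and 161 CPM in FIH-KO normoxia and 428 and 470 CPM in FIH-KO hypoxia, against 333 and 284 and then 508 and 441 CPM in WT cells. The FIH-KO libraries were thus lower than WT at 21% O2 and overlapped with WT at 1% O2, a difference of 0.95 ± 0.18 (edgeR adjusted p = 0.19, DESeq2 0.0011). For Ldha the difference was 0.88 ± 0.19 (0.27 and 0.0014), with WT at 2384 and 1970 CPM in normoxia and 3587 and 3151 CPM in hypoxia, so that both FIH-KO libraries lay below WT at 21% O2 and above it at 1% O2. For Pgk1 it was 0.79 ± 0.19 (0.35 and 0.0096), with WT at 662 and 575 and then 1899 and 1661 CPM, in the same order. For Pdk1 it was 1.18 ± 0.27 (0.32 and 0.0073), with WT at 98.8 and 75.2 and then 341 and 314 CPM, so that FIH-KO lay below WT at 21% O2 and above it at 1% O2. The study reports higher relative expression of Ldha, Pgk1 and Pdk1 upon FIH deletion, and its figure legend gives culture under normoxia or hypoxia. In the RNA-Seq libraries here, FIH-KO cells lay above WT cells for these 3 genes at 1% O2 and below them at 21% O2. The levels of Vegfa, which the study names with them, are given below. Slc16a3 changed by 5.58 in FIH-KO and 3.01 in WT cells, where it was at 12.5 and 7.41 CPM in normoxia and 95.3 and 64 CPM in hypoxia, so that the genotypes were apart at 21% O2 and overlapped at 1% O2, but the difference passed in neither tool (2.57 ± 0.50, edgeR adjusted p = 0.19, DESeq2 0.067). Plod2 behaved in the same way, with 146 and 125 CPM in WT normoxia and 388 in each WT hypoxia library (0.94 ± 0.17, 0.19 and 0.0011). The number of the list's members with such a p was between 7 and 15 with any 1 of the 8 libraries left out.

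Other genes had the smaller value in FIH-KO cells, and none of these differences passed in edgeR. Vegfa was at 30.8 and 32.3 CPM in WT normoxia and 291 and 243 CPM in WT hypoxia, a log2 change of 3.08 against 1.97 in FIH-KO cells, where normoxia was already at 74.6 and 70.9 CPM (difference -1.11 ± 0.22, edgeR adjusted p = 0.19, DESeq2 0.0045). Pdgfa, a platelet-derived growth factor, rose in WT cells from 8.74 and 8.71 to 17.5 and 18.7 CPM and had 44.7 and 35.1, then 34.2 and 29.4 CPM in FIH-KO cells (-1.38 ± 0.23, 0.19 and 0.0011). Iah1, a predicted esterase, had the smallest p: 16.6 and 18.2 to 56.1 and 52.9 CPM in WT cells, and 28.5 and 21.6 to 27.2 and 26.2 CPM in FIH-KO cells (-1.55 ± 0.22, 0.14 and 1.6e-05). Dusp1, a phosphatase of the MAP kinases, changed by 0.81 in FIH-KO and 2.34 in WT cells (-1.54 ± 0.30, 0.19 and 0.0075), and Ddit4 by 1.30 and 2.48 (-1.18 ± 0.27, 0.29 and 0.0075). Car9, at the floor in FIH-KO cells, rose in WT cells from 0.129 and 0.118 to 2.75 and 1.84 CPM (4.15, adjusted p = 0.00032, difference -4.36 ± 0.98, edgeR adjusted p = 0.29, with no adjusted p from DESeq2). By list, 9 of 38 stress response genes, 7 of 16 clock genes and 7 of 26 immediate early genes had an unadjusted p under 0.05, against 6.64% of all tested genes, all with the smaller value in FIH-KO cells (4.11% of all). Their medians in FIH-KO and WT cells were 0.68 and 0.88, 0.48 and 1.13, and 0.81 and 1.13. These counts moved with the library left out, from 4 to 18 for the stress genes, 3 to 7 for the clock genes and 3 to 13 for the immediate early genes.

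In the same comparison the G2/M list had a median of -0.01 in FIH-KO and -0.30 in WT cells. In WT cells 18 of 54 members were called lower and 4 higher, against 15.5% lower and 16.9% higher among all tested genes. Ccnb1, cyclin B1, named after its values were seen, had 167 CPM in each FIH-KO normoxia library and 152 and 212 CPM in hypoxia, against 265 and 244 and then 171 and 164 CPM in WT cells (difference 0.73 ± 0.20, edgeR adjusted p = 0.45, DESeq2 0.12). Of the 54 members, 7 had an unadjusted p under 0.05 for the difference, against 6.64% of all tested genes. All 7 had the larger value in FIH-KO cells (2.53% of all). The number was 47 without FIH-KO hypoxia replicate 1 and 2 without FIH-KO hypoxia replicate 2, so it followed the library that was kept. The medians of the S phase list were -0.48 and -0.51 and those of nuclear oxidative phosphorylation -0.35 and -0.47 in FIH-KO and WT cells.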

How the data were processed

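RNA was sequenced from FIH-KO and WT LLC cells at 21% and 1% O2, with 2 libraries per group, after a stranded mRNA kit with paired-end reads. The authors aligned the reads with STAR to GRCm39 and counted them per gene with HTSeq, and the deposited values are raw counts with no normalization. The annotation release and the strand setting of the counting are not given in the sources used here, so reads of overlapping antisense genes may not be told apart. All samples were grouped by their labels.

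Genes were filtered with filterByExpr, scaled by TMM and fitted in edgeR 4.0.16 (R 4.3.3) with a quasi-likelihood model of 4 group means over all 8 libraries (biological coefficient of variation 11.7%). The contrasts were hypoxia minus normoxia in FIH-KO cells, the same in WT cells and the difference between them, each with Benjamini-Hochberg adjustment over 13933 genes. DESeq2 1.42.0 was an alternative, as were other scalings and filters, a fit of 4 libraries, a replicate block and leaving out each library. The test was checked on simulated counts with known changes in few genes of FIH-KO hypoxia and the same spread per gene in every group. For the FIH-KO response edgeR recovered 61 of 98 changes of 2-fold and 91 of 97 of 4-fold, with 10 false calls. Figures used Python 3.11.15 and matplotlib 3.10.9. Promoter windows were read from GRCm39 with GENCODE vM39, which held 52610 of the 53700 gene identifiers.

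The members and the 34 gene lists, which name 818 genes, were chosen with earlier results of these data known. Named genes were the 12 largest rises and 12 largest falls among called genes averaging 50 counts or more and no overlap between groups, all members of the sensor list and of both study lists, and up to 4 called members per direction of every other list by smallest adjusted p. Genes named outside this rule, such as the remaining glycolytic enzymes, secreted factors and stress genes, were chosen after their values were seen. Each group had 2 libraries of 14519731 to 18177016 counts. Intervals on count ratios are 95% intervals that cover counting error only. Some called genes are counted but not reported here by name.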

Additional observations from a re-analysis of the deposited data

How the results depend on the processing

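The number of genes called in FIH-KO cells (2345) was 2342 with DESeq2, 2334 with RLE size factors, 2345 with upper-quartile scaling, 2821 with no filter beyond 1 read, 2196 with a mean of at least 50 counts and 2479 with the replicate block. It was 1289 in a fit of the 4 FIH-KO libraries alone (808 higher, 481 lower, so that rises were 62.7% of calls instead of 52.5%), and no gene called in the reported fit changed sign in any of these settings. With 1 library left out, the lone library of that group being assumed to vary like the other groups, it ran from 1097 to 2604 (675 to 1333 higher, 422 to 1271 lower, 111 to 333 lower past 2-fold), and the WT count from 2124 to 2867. The difference between genotypes had 40 calls with DESeq2, 143 with no filter, 5 with the replicate block and 0 to 39 with a library left out. Same-numbered libraries had deviations that correlated at 0.083 between the FIH-KO groups, 0.243 between the hypoxia groups and -0.113 between FIH-KO normoxia and WT hypoxia, so the numbers were not taken as pairs. Values that changed sign were Cdc25a in FIH-KO cells (0.03, and -0.22 to 0.29 with a library left out, negative without hypoxia replicate 2 or normoxia replicate 1, at -0.16) and, for the difference, with a library left out, Slc2a1 (-0.28 to 0.54) and Areg (-0.50 to 0.71), both turned without FIH-KO hypoxia replicate 1, Myc (-0.97 to 0.01), turned without FIH-KO hypoxia replicate 2, and Ccn1 (-1.18 to 0.14), turned without WT normoxia replicate 2. The cause was not tested.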

Other observations

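Outside the gene lists, several further genes had adjusted p under 1e-05 in FIH-KO cells and are named after their values were seen. Clcn3, a chloride-proton exchanger of endosomes, was at 29 and 31.5 CPM in normoxia and at 137 and 124 CPM in hypoxia (log2 2.11 ± 0.12, edgeR adjusted p = 1.1e-06). Ndrg1, a stress-induced gene long known from hypoxia, rose from 85.7 and 83.8 to 1170 and 633 CPM (3.41 ± 0.24, adjusted p = 3.4e-06). Ak4, a mitochondrial adenylate kinase, rose from 28.9 in each to 112 and 99.2 CPM (1.87 ± 0.13, adjusted p = 3.4e-06), and Nampt, the rate-limiting enzyme of NAD salvage, from 165 and 144 to 572 and 520 CPM (1.82 ± 0.13, adjusted p = 3.7e-06).

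Rgs11, a regulator of G protein signaling, rose from 2.92 and 3.75 to 38.4 and 31.1 CPM (3.38 ± 0.25, adjusted p = 4.6e-06), and Homer1, a synaptic scaffold, from 14.8 and 14.5 to 60.5 and 48 CPM (1.89 ± 0.14, adjusted p = 6.1e-06). Ifi204, of a family of similar interferon-inducible genes, rose from 11.1 and 8.73 to 110 and 65.0 CPM (3.14 ± 0.24, adjusted p = 6.2e-06). In all of these genes both hypoxia libraries exceeded both normoxia libraries, and WT cells had changes of the same sign, from 1.44 for Ak4 to 3.97 for Ndrg1. Krt19, a keratin of simple epithelia, rose in FIH-KO cells from 11 and 17 to 235 and 109 counts (3.74 ± 0.48, adjusted p = 0.0004). It belongs to the markers of lung cancer epithelium, whose other tested members, Krt8 and Krt18, were not called.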
